A study of Caenorhabditis elegans with 83 samples.

Results

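The 9 genes described here encode shape-defining cuticle collagens of Caenorhabditis elegans outside the annular furrow set. They are dpy-4 (Y41E3.2), dpy-5 (F27C1.8), dpy-13 (F30B5.1), dpy-17 (F54D8.1), rol-6 (T01B7.7), sqt-1 (B0491.2), sqt-3 (F23H12.4), bli-1 (C09G5.6) and bli-2 (F59E12.12). They were taken by name, by a rule that uses no measured value, and with earlier results of these data known. All 9 are among the 17829 genes present in both RNA comparison tables.

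The study removed cohesin factors from whole larvae with the auxin-inducible degron, a tag that sends the protein fused to it for destruction once auxin is present. RNA-seq compared 2 depletion strains with the auxin-treated control strain CA1200. In JK05 the depleted protein was SMC-3, part of the cohesin ring, and in JK06 it was WAPL-1, which releases cohesin from chromatin. There were 2 libraries per strain, after 4 h of 1 mM auxin per the labels, although the treatment protocol shared with the ChIP samples describes 1 h. ChIP-seq for SMC-3 and for PQN-85, the worm homologue of the cohesin loading factor NIPBL, was done after 1 h of auxin in JK05, JK06 and CA1200. The same antibodies and one for the histone mark H4K20me1 were used in strain HW04 with 1 h of 1 mM auxin and without auxin, 2 libraries each. The auxin concentration of the JK05 and CA1200 ChIP samples and of replicates 1 and 2 of SMC-3 ChIP in JK06, the degron target of HW04, and the promoter that drives the degradation machinery are not given in the sources used here. All groups were whole worms labelled L3, grown for 24 h at 22 °C from starved L1 larvae, and each depletion was studied in 1 strain, so strain and depletion cannot be told apart.

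The cuticle is an extracellular coat that the epidermis secretes anew at each moult, and collagens are its main structural proteins. Collagen chains are hydroxylated, cut by proteases, assembled into trimers and crosslinked, and each larval cycle expresses successive waves of collagen genes. Mutations in single collagen genes change the body form, and the genes are named for it: dumpy (dpy) worms are short and fat, rollers (rol) are helically twisted, squat (sqt) worms can be either, and blistered (bli) adults have fluid-filled swellings of the cuticle. SQT-3 and DPY-17 are known substrates of the protease DPY-31, rol-6 and sqt-1 interact genetically, and BLI-1 and BLI-2 are collagens of the struts of the adult cuticle.

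No gene sequence is shown, because the files and tables used here hold coordinates and names only. In the tables' coordinates, whose build is not stated, dpy-5 lies on chromosome I, rol-6, sqt-1, bli-1 and bli-2 on chromosome II, dpy-17 on chromosome III, dpy-4 and dpy-13 on chromosome IV and sqt-3 on chromosome V, and none is on X. The spans run from 900 bp for dpy-5 to 3167 bp for bli-1. There are 3 that lie wholly inside the span of a gene on the opposite strand: dpy-4 in atln-2, bli-1 in dph-2 and bli-2 in zyg-1, which encodes the kinase that starts centriole duplication. The overlap is of whole spans, exons were not compared, and whether reads were counted by strand is not stated. Whether reads of one gene of a pair entered the count of the other is therefore unknown.

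Of the collagen genes, 6 were among the most abundant RNAs of the larvae and the other 3 were near the bottom of the range. In the authors' deposited table for JK05 over CA1200, the mean normalized count over the 4 libraries was 9838 for dpy-4, 7733 for dpy-5, 9849 for dpy-13, 4586 for rol-6, 5054 for sqt-1 and 10056 for sqt-3. These means exceeded those of 96.4% to 98.5% of the genes in the authors' deposited table. In the same authors' deposited table the mean was 14.2 for dpy-17, 5.25 for bli-2 and 3.05 for bli-1. The low bli-1 and bli-2 values are the ones a small share of reads from the overlapping genes could alter most, since dph-2 had a mean of 272 and zyg-1 a mean of 298 normalized counts in the authors' deposited table. Counts for single libraries were not used here, so the depth is unknown and the standard error of each fold change is the only measure of spread.

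Levels can be set side by side only per length. A mean for each strain follows from the mean over the libraries and the fold change, on the assumption that both strains weigh equally in that mean. Per kilobase of gene span (introns included), JK05 had an implied mean normalized count of 8368 for dpy-5, 8162 for dpy-13, 8130 for sqt-3, 7186 for dpy-4, 5160 for sqt-1 and 3887 for rol-6. On the same scale CA1200 had 8816 for dpy-5, 9844 for dpy-13, 7083 for sqt-3, 8669 for dpy-4, 3660 for sqt-1 and 3359 for rol-6. Thus dpy-4, dpy-5, dpy-13 and sqt-3 lay close together at the top in both strains, with sqt-1 and rol-6 below them. The low genes stood at 8.72 for dpy-17, 5.05 for bli-2 and 1.13 for bli-1 in JK05, and at 13.7, 5.26 and 0.789 in CA1200. Whether neighbours in this order differ could not be tested without the single libraries.

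In JK06, implied means per kilobase of span were 9867 for dpy-13, 9089 for dpy-5, 7453 for dpy-4, 5953 for sqt-3, 2854 for sqt-1 and 2832 for rol-6. CA1200 in that table, which was scaled separately, had 11258 for dpy-13, 10075 for dpy-5, 9911 for dpy-4, 8085 for sqt-3, 4175 for sqt-1 and 3833 for rol-6. All 6 abundant collagen genes were thus nominally lower in JK06, and none of these differences passed the test below. The low genes had 9.78 for dpy-17, 2.51 for bli-2 and 1.51 for bli-1 in JK06, and 15.5, 5.96 and 0.933 in CA1200.

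**Figure D1:**
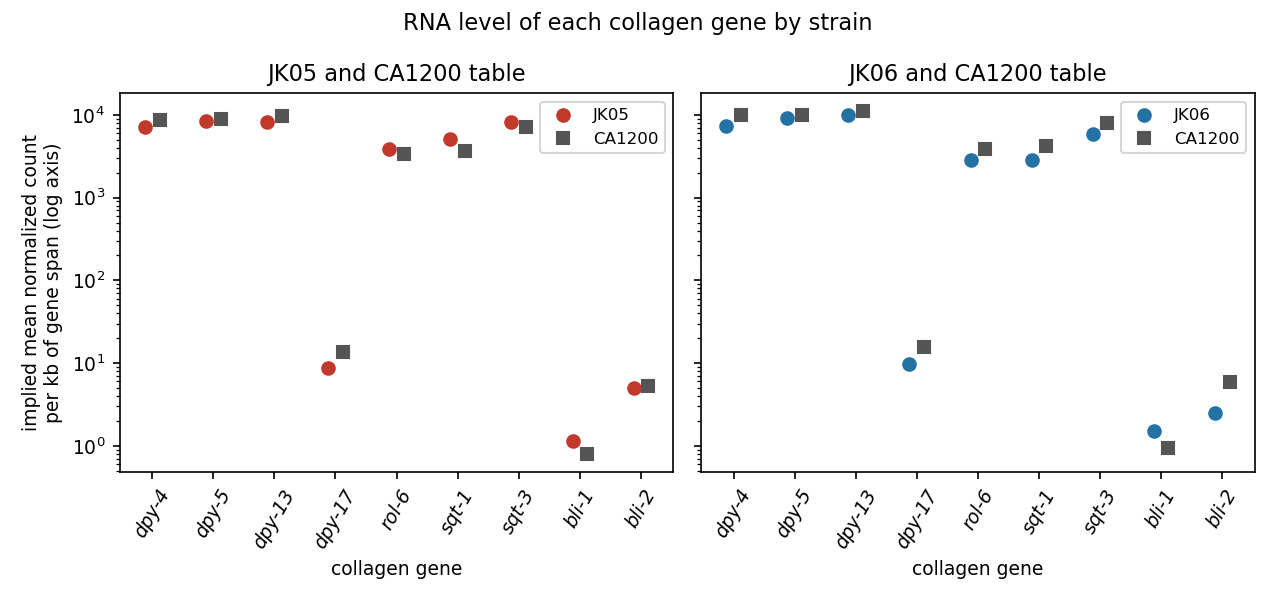
Implied mean normalized count per kilobase of gene span (log axis) for each collagen gene, in JK05 and CA1200 (left) and in JK06 and CA1200 (right); each point is a strain mean from 2 libraries, and no error is shown because library values were not available here. The 6 abundant genes lie far above dpy-17, bli-1 and bli-2 in every strain.

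After SMC-3 depletion, no shape-defining collagen gene of the 9 was called at an adjusted p under 0.05 in the authors' deposited table (DESeq2 Wald test), and none had an unadjusted p under 0.05. Over all genes with an adjusted p in that authors' deposited table, 0.686% were called, 0.222% higher and 0.464% lower, and 5.83% of all genes had an unadjusted p under 0.05. At these rates, no call among 9 genes is near the background.

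The dumpy collagens dpy-4, dpy-5, dpy-13 and dpy-17 had negative estimates in JK05. In the authors' deposited table the log2 fold change of JK05 over CA1200 was -0.27 ± 0.43 (SE, 2 libraries per strain) for dpy-4, which gives a fold between 0.460 and 1.49 (1.96 SE either side). The dpy-5 estimate in the authors' deposited table was -0.08 ± 0.40, with a fold between 0.551 and 1.63. That of dpy-13 was -0.27 ± 0.46 in the authors' deposited table, with a fold between 0.441 and 1.56. Among the 27 called genes with a mean of at least 1000 in the authors' deposited table, the smallest log2 change was 0.92 in either direction. The lower bounds are -1.12 for dpy-4, -1.18 for dpy-13 and -0.86 for dpy-5, so falls of the size called elsewhere stay within the precision for dpy-4 and dpy-13. The low gene dpy-17 had -0.65 ± 0.83 in the authors' deposited table, and its fold interval runs between 0.205 and 1.97.

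The roller and squat collagens pointed the other way in JK05. In the authors' deposited table sqt-1 had a log2 fold change of 0.50 ± 0.29, with an unadjusted p of 0.0856 and an adjusted p of 0.892 (DESeq2 Wald test), the smallest p of the 9 genes. The fold interval of sqt-1 from the authors' deposited table runs between 0.953 and 2.09. The rol-6 estimate was 0.21 ± 0.30 in the authors' deposited table, a fold between 0.768 and 1.74. That of sqt-3 was 0.20 ± 0.33 in the authors' deposited table, a fold between 0.735 and 1.79. For rol-6 and sqt-3, as for dpy-5, both bounds lie within a log2 change of 0.92, the smallest one called among abundant genes. The strut collagens gave little information: bli-1 had 0.52 ± 1.69 and bli-2 had -0.06 ± 1.32 in the authors' deposited table.

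After WAPL-1 depletion, again none of the 9 collagen genes was called and none had an unadjusted p under 0.05 in the authors' deposited table (DESeq2 Wald test). The background there is 0% called in either direction (0% higher, 0% lower) over 18308 genes, with 73 genes (0.399%) at an unadjusted p under 0.05, so the absence of calls says nothing particular to these genes. Estimates were negative for 8 of the 9 genes, all but bli-1, beside 8086 of the 18308 genes. Whether the 9 genes differ from that share was not tested. The largest among abundant genes was that of sqt-1, at -0.55 ± 0.41 in the authors' deposited table (unadjusted p 0.185, adjusted p 1.00, DESeq2), a fold between 0.389 and 1.20. The other roller and squat collagens had -0.44 ± 0.46 (rol-6) and -0.44 ± 0.47 (sqt-3) in the authors' deposited table. The dumpy collagens had -0.41 ± 0.67 (dpy-4), -0.15 ± 0.73 (dpy-5), -0.19 ± 0.74 (dpy-13) and -0.67 ± 0.89 (dpy-17) in the authors' deposited table. The strut collagens had 0.69 ± 2.28 (bli-1) and -1.25 ± 1.57 (bli-2) in the authors' deposited table.

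The sqt-1, rol-6 and sqt-3 estimates were thus positive in JK05 and negative in JK06, each within 2 SE of 0. Both comparisons share the 2 CA1200 libraries, and the difference between the depletions was not tested.

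**Figure D2:**
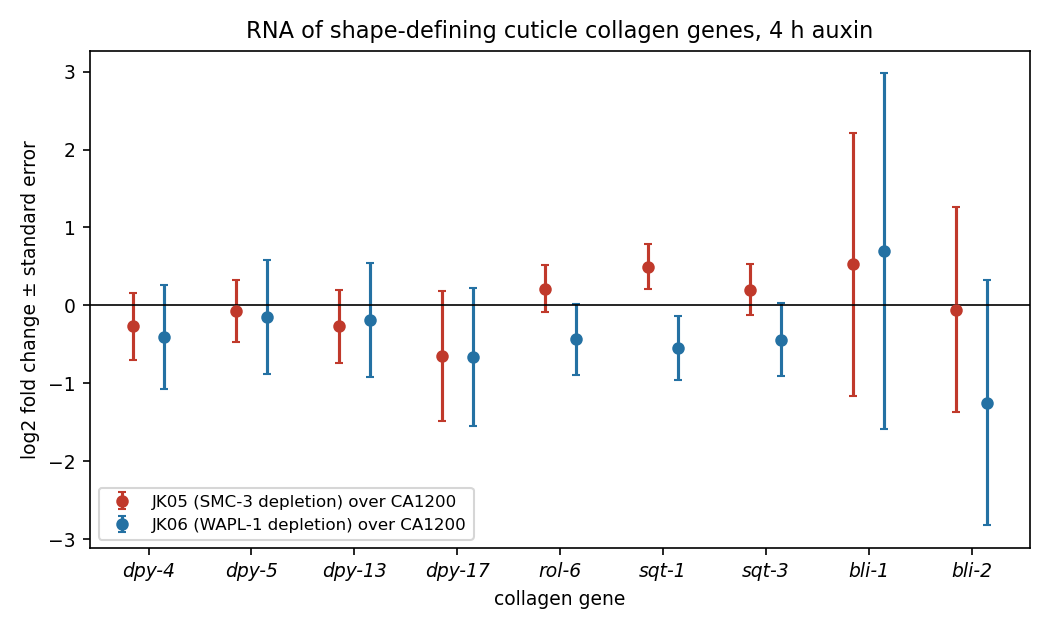
Log2 fold change ± standard error from the authors' deposited tables for each collagen gene, JK05 over CA1200 in red and JK06 over CA1200 in blue (2 libraries per strain). No gene was called in either comparison; sqt-1 stands at 0.50 in JK05 and -0.55 in JK06, and the error bars of bli-1 and bli-2 are the longest.

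Among the abundant members the spread was unequal. The standard errors of dpy-4, dpy-5 and dpy-13 in the authors' deposited table for JK05 were larger than those of 92.2%, 88.9% and 94.4% of genes with a mean of at least 1000, whose median standard error was 0.286. Those of rol-6, sqt-1 and sqt-3 were larger than 61.1%, 51.6% and 73.8% of such genes in the authors' deposited table. In the authors' deposited table for JK06 the same split appeared, with 84.6% to 89.6% for dpy-4, dpy-5 and dpy-13, and 22.3% to 47.7% for rol-6, sqt-1 and sqt-3 (median over such genes 0.473). Genes named col- with a number and a mean of at least 1000, other cuticle collagens, had a median standard error of 0.462 in JK05 and 0.659 in JK06 in the authors' deposited tables, like the dpy-4, dpy-5 and dpy-13 values. The 2 tables share their CA1200 libraries, so they are not independent views of this split.

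**Figure D3:**
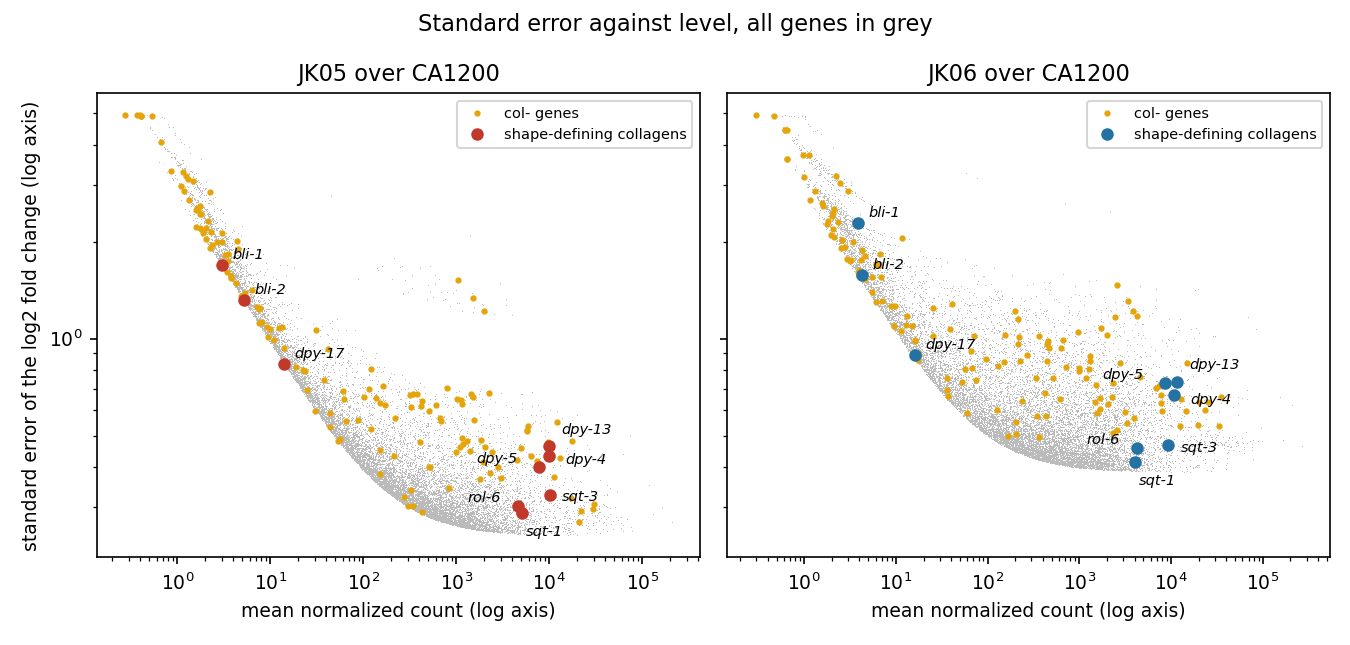
Standard error of the log2 fold change against mean normalized count (both log axes) for all genes (grey), col- genes (yellow) and the 9 shape-defining collagen genes (labelled), JK05 over CA1200 on the left and JK06 over CA1200 on the right. In both panels dpy-4, dpy-5 and dpy-13 lie above rol-6, sqt-1 and sqt-3. Of the latter only sqt-3 is near them in count. Means of rol-6 and sqt-1 are lower, at 4586 and 5054 in the JK05 comparison and 4219 and 4028 in the JK06 comparison.

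Other cuticle genes give the setting for these estimates. The median log2 fold change of the 9 genes was -0.06 in JK05, beside -0.01 over all genes, and -0.44 in JK06, beside 0.05 over all genes, from the authors' deposited tables. The 6 annular furrow collagens, which mark the circumferential grooves of the cuticle, had a median of 0.13 in JK05 with 5 positive, and of -0.67 in JK06 with all 6 negative, and none was called in the authors' deposited tables. The 2 with the smallest p were dpy-2 (0.30 ± 0.25) and dpy-8 (0.22 ± 0.26) in JK05, and dpy-8 (-0.74 ± 0.57) and dpy-10 (-0.69 ± 0.55) in JK06, in the authors' deposited tables. Of 8 further shape collagens 7 were in each table and none was called. In JK05 only 4 of these 7 had an adjusted p, so the others could not be called. The sqt-2 estimate was 0.85 ± 0.30 in JK05 (adjusted p 0.221, DESeq2) in the authors' deposited table.

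Collagens with col- names had lower estimates in JK05 and, with none called, in JK06. Of 153 such genes in the authors' deposited table for JK05, 119 had an adjusted p, and 6 were called lower and 1 higher. Over all genes with an adjusted p, 0.464% were called lower and 0.222% higher. The median log2 fold change of the 153 col- genes was -0.76. Among the 42 with a mean of at least 1000, 39 had negative estimates, with a median of -0.88, in the authors' deposited table. The 6 abundant shape-defining genes had a median of 0.06 in the authors' deposited table, with 3 negative and 3 positive. The difference between these lists was not tested. Genes called lower in JK05 in the authors' deposited table (DESeq2, adjusted p) were col-80 (-2.03 ± 0.37, adjusted p 3.33e-05), col-142 (-2.31 ± 0.47), col-169 (-2.27 ± 0.56), col-159 (-2.09 ± 0.53), col-93 (-1.60 ± 0.43) and col-141 (-2.59 ± 0.71). The gene col-131 was called higher, at 1.37 ± 0.30, in the authors' deposited table. In JK06 none of the 152 col- genes was called, and their median was -0.51, in the authors' deposited table. Among the 43 with a mean of at least 1000 there, 36 had negative estimates, with a median of -0.76. The 6 abundant shape-defining genes were all negative in JK06, with a median of -0.42, and this difference between lists was not tested either.

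Enzymes that process collagen, among them the prolyl hydroxylase dpy-18, the protease genes bli-4 and dpy-31 and the peroxidase mlt-7, were called in neither comparison (14 genes), with medians of 0.06 in JK05 and 0.08 in JK06 in the authors' deposited tables. In JK05 13 of the 14 enzyme genes had an adjusted p. The mlt-7 estimate was -0.79 ± 0.29 in JK05 (adjusted p 0.251, DESeq2) in the authors' deposited table. Epidermal transcription factors (8 genes) were likewise called in neither, with estimates positive for 8 of 8 in JK05 (median 0.28) and negative for 7 of 8 in JK06 (median -0.38) in the authors' deposited tables. Moult phase genes (12 genes, none called) had 11 positive estimates in JK05 (median 0.39) and 11 negative ones in JK06 (median -0.40) in the authors' deposited tables. The exception in JK05 was mlt-10, which was negative in both, at -0.70 ± 0.28 in JK05 and -1.36 ± 0.50 in JK06 in the authors' deposited tables.

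Collagen RNA cycles with the moult, and these directions are given beside the collagen estimates; their part in them was not tested. In whole worms, fewer cells of a type and less RNA per cell cannot be told apart. Epidermis markers (9 genes, means of 416 to 38026, none at 0) had medians of 0.18 in JK05 and -0.38 in JK06, with none called, in the authors' deposited tables. One of these markers, dpy-7 (-0.64 ± 0.55 in JK06), is itself a cuticle collagen gene, so the list is not independent of collagen expression. Medians of the other markers in JK05 were -0.40 for body muscle, -0.43 for intestine, -0.02 for neurons, -0.56 for germline and -0.08 for pharynx in the authors' deposited tables. In JK06 they were -0.12, -0.02, -0.08, 0.03 and 0.33, in the same order, and none of these markers was called in the authors' deposited tables. In JK05 7 of the 8 germline markers had an adjusted p. The RNA of smc-3 (-0.23 ± 0.26 in JK05) and wapl-1 (0.22 ± 0.41 in JK06) in the authors' deposited tables does not check the depletions, since the degron acts on the protein.

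The ChIP data show where cohesin and its loader lay relative to these genes. None of the 9 collagen genes had a peak between 500 bp upstream of its start and its end (overlap of at least 1 bp) in any of the 17 SMC-3 and PQN-85 lists or the 4 H4K20me1 lists. For SMC-3, the share of all 18607 genes with a peak in that window was 1.26% in JK05, where 361 peaks were called in all. It was 27.3% in the combined set of JK06, 32.8% and 26.7% in single JK06 libraries (replicates 3 and 4), and 23.5% in CA1200. In HW04 it was 24.9% and 27.4% with auxin, and 17.5% and 16.7% without auxin.

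For PQN-85, the share of genes with a peak was 18.3% in JK05, 22.3% in the combined JK06 set, 32.8% in the list called on averaged JK06 libraries and 19.1% in CA1200. In HW04 it was 12.9% and 3.50% with auxin, and 20.2% and 33.9% without auxin. For H4K20me1, a mark enriched on the X chromosome by dosage compensation, it was 14.8% and 16.5% with auxin, and 15.5% and 15.9% without auxin.

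Peak shares differed with size and expression. Genes with a span in the range of these collagens had a median share with an SMC-3 peak of 19.7% over the 9 lists, beside 24.9% over all genes, and with a PQN-85 peak of 14.5% over the 8 lists, beside 19.7% over all genes. Among the 1226 genes with a span in the range of these collagens whose mean reached 1000 normalized counts, the median share with an SMC-3 peak over the 9 lists was 52.2%, and with a PQN-85 peak over the 8 lists 43.0%. The genes dpy-17, bli-1 and bli-2, with means under 20, have no counterpart in that narrower group. Among col- genes the medians were 12.99% for SMC-3 and 12.3% for PQN-85. In the CA1200 SMC-3 set, 26 of 154 col- genes and 2 of the 6 annular furrow collagens had a peak. With 9 genes, whether the count of 0 differs from these shares was not tested.

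**Figure D4:**
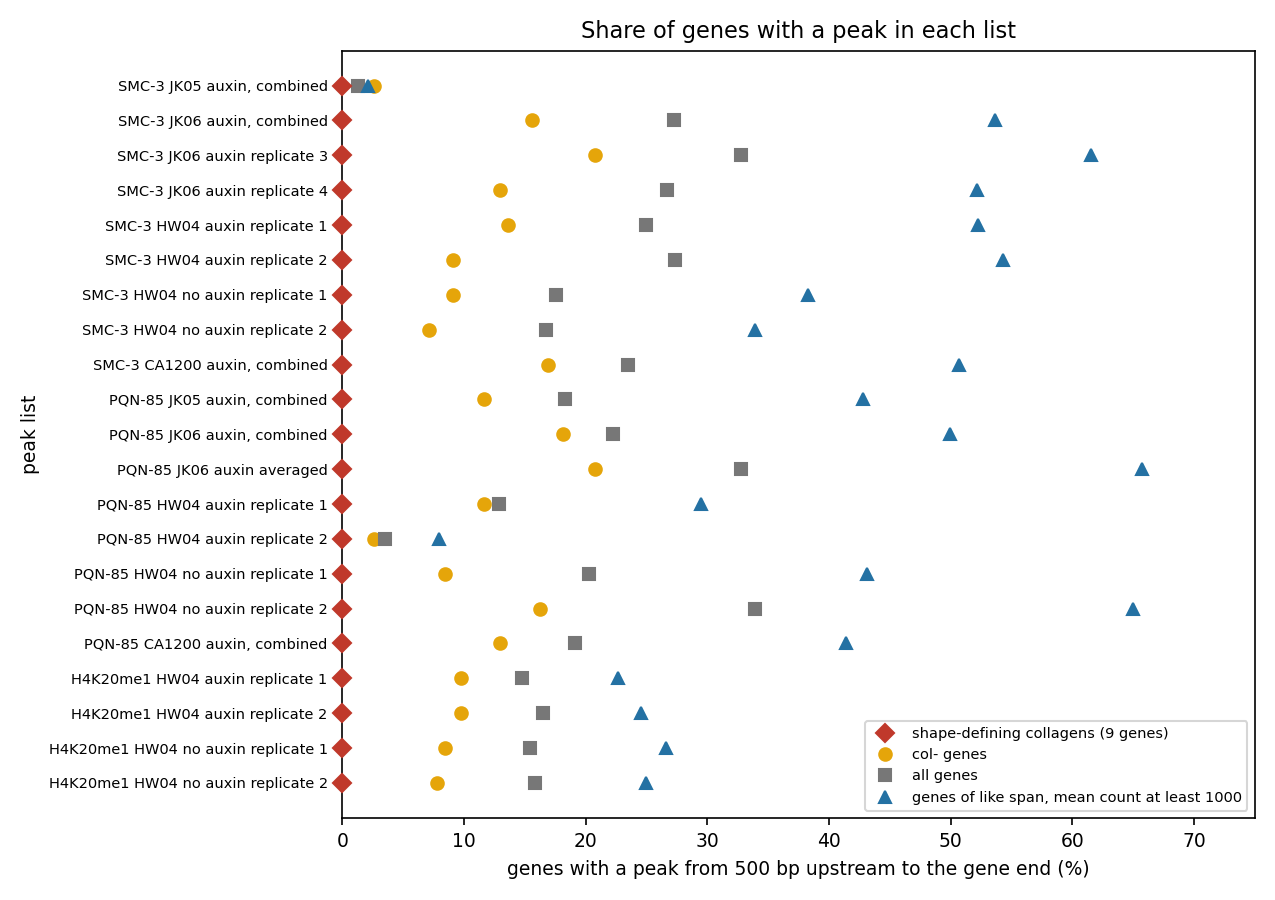
Percent of genes with a peak between 500 bp upstream and the gene end in each of the 21 peak lists, for the 9 shape-defining collagens (diamonds, 0 in every list), col- genes (circles), all genes (squares) and genes of like span whose mean reached 1000 normalized counts (triangles). JK05 has the lowest shares for SMC-3, and in every SMC-3 list the triangles lie above the squares (2.12% against 1.26% in JK05).

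In HW04 the number of these genes with a peak was 0 and 0 with auxin and 0 and 0 without auxin, for SMC-3, PQN-85 and H4K20me1 alike. The difference was 0, with a 2-sided exact permutation p of 1. With 0 in every library no other p was possible, so the test decides nothing here. The smallest p that 2 against 2 libraries allow is 0.333. The peak names in the HW04 SMC-3 lists state the opposite auxin condition to the labels, so no direction is drawn from those lists.

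Although the windows were empty, some of the genes had a peak close by, and it lay at a like place in most lists. The lists are not all independent: the combined JK06 SMC-3 set draws on 4 libraries, among them replicates 3 and 4 that also have lists of their own, while the JK05 and CA1200 sets draw on 2 each. Both JK06 PQN-85 lists draw on the same 2 libraries. An SMC-3 summit lay within 5000 bp of the start for 0 of the 9 genes in JK05, 5 in the combined JK06 set and 3 in CA1200, beside 3.37%, 46.7% and 41.3% of all genes in those sets. Past the 3′ end of dpy-17, 8 of 9 SMC-3 lists had a summit 1588 to 1671 bp downstream of the gene start, and the peak edge lay 83 to 260 bp past the gene end. The list without it was that of JK05. That peak falls between dpy-17 and sax-2, a gene on the same strand whose start is 2373 bp downstream of the dpy-17 start. In the CA1200 SMC-3 set it spanned chrIII:5108660-5109115 (build ce10 per the labels), and 30.97% of peaks in that set had a lower fold enrichment. PQN-85 had it in 5 of 8 lists, among them JK05, JK06 and CA1200, with summits 1590 to 1652 bp downstream.

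Past the 3′ end of sqt-1 lay a similar peak, with a summit 1893 to 1992 bp downstream of the start in 8 of 9 SMC-3 lists, again all but JK05. In CA1200 it spanned chrII:11335592-11336124 (ce10), 501 bp past the gene end, and 60.5% of peaks in that set had a lower fold enrichment. In JK06 the combined SMC-3 set placed the peak 508 bp past the end. PQN-85 had a peak there in 5 of 8 lists, with a gap to the sqt-1 end of 19 bp in JK05, 534 bp in JK06 and 465 bp in CA1200. The build of the RNA tables is not stated, and their gene starts on chromosome II differ from those of WBcel235 by a median of 40 bp, so whether the JK05 peak touches sqt-1 is not resolved.

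Most peaks near dpy-5 and bli-2 lay near the starts of other genes. For dpy-5, 8 of 9 SMC-3 lists (all but JK05) had a summit 3103 to 3142 bp downstream of the start. In the JK06 and CA1200 combined sets that summit was 11 bp and 45 bp upstream of the start of atp-3, a subunit gene of the mitochondrial ATP synthase. PQN-85 had a summit there too in the JK05, JK06 and CA1200 combined sets, and in 3 further lists its nearest summit to dpy-5 lay 1578 to 1593 bp downstream, 478 to 527 bp past the gene end (the averaged JK06 list and both HW04 libraries without auxin). Those 3 summits were 1302 to 1317 bp from the nearest gene start, that of F27C1.2. For bli-2, 7 of 9 SMC-3 lists had a summit 2784 to 2848 bp downstream, between the starts of zyg-1 and sam-4. Those starts lie 2690 and 2954 bp downstream of the bli-2 start. JK05 and CA1200 had no SMC-3 summit within 5000 bp. In CA1200 the nearest SMC-3 peak to bli-2 was 8849 bp upstream, 109 bp from the start of mdt-26, and 98.5% of peaks in that set had a lower fold enrichment. PQN-85 had the peak near zyg-1 in the JK05 set (2776 bp downstream of the bli-2 start) and the JK06 set (2795 bp), and in CA1200 its nearest peak was again that at mdt-26.

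The sqt-3 gene was the one member with a peak upstream within 1000 bp of its start, in 1 list. The PQN-85 set of JK05 held a peak 916 bp upstream of the sqt-3 start (chrV:12351841-12352274, build not stated for this list), with a fold enrichment over input of 3.65 by the authors' peak caller, above 69.2% of that set. In JK06 and CA1200 the nearest PQN-85 summits lay 9251 and 9269 bp upstream, at tomm-20, a gene of the mitochondrial import machinery. The JK05 PQN-85 set also had a peak at tomm-20, with its summit 9241 bp upstream. All SMC-3 lists but that of JK05 had their nearest summit there too, 9241 to 9258 bp upstream of sqt-3.

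For bli-1, PQN-85 summits lay 2778 bp upstream of the start in JK05 and 2654 bp upstream in JK06, and that of CA1200 lay 34882 bp downstream. The JK05 and JK06 summits stood at -1021 and -897 bp from the start of col-80, the collagen gene whose span ends 672 bp before bli-1. In JK05 15.4% of peaks in the set had a lower fold enrichment, and in JK06 56.1%. The RNA of col-80 was called lower in JK05 and not called in JK06, and a link to this peak was not tested. PQN-85 had a summit there in 5 of 8 lists, among them both HW04 libraries without auxin, and SMC-3 in 1 of 9 (JK06, replicate 3).

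For dpy-13 and dpy-4 no SMC-3 or PQN-85 summit lay within 5000 bp in any list, and for rol-6 one did in a minority of lists. The nearest SMC-3 summit to dpy-13 was at ama-1, the gene of the largest RNA polymerase II subunit, in 8 of 9 lists, 11896 to 11982 bp downstream. Near dpy-4 no SMC-3 or PQN-85 summit was closer than 12252 bp, and the SMC-3 median was 26945 bp. For rol-6 the nearest SMC-3 summit was 2283 bp downstream in the combined JK06 set and 2326 bp downstream in JK06 replicate 3. Those peaks were weak, as 3.95% and 9.50% of peaks in their lists had a lower fold enrichment. In JK06 replicate 4 the nearest summit lay 7083 bp downstream. In CA1200 it lay 14634 bp downstream, in a broad peak of which the edge lay 4819 bp past the gene end. The nearest PQN-85 summit to rol-6 lay 6102 bp downstream in the JK05 set, 7536 bp downstream in the combined JK06 set and 2531 bp upstream in CA1200. Farther peaks were shared by these sets. JK05, JK06 and CA1200 each had a PQN-85 summit at 7507, 7536 and 7472 bp downstream, in that order. The fold enrichments there were 6.07, 5.40 and 4.40, beside 2.46 for the upstream CA1200 peak. Each set also had a broad peak with its summit 9208, 9154 and 9140 bp downstream. An upstream summit at 2490 to 2531 bp was the nearest in 3 of 8 PQN-85 lists: CA1200, the averaged JK06 list and HW04 without auxin, replicate 2.

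**Figure D5:**
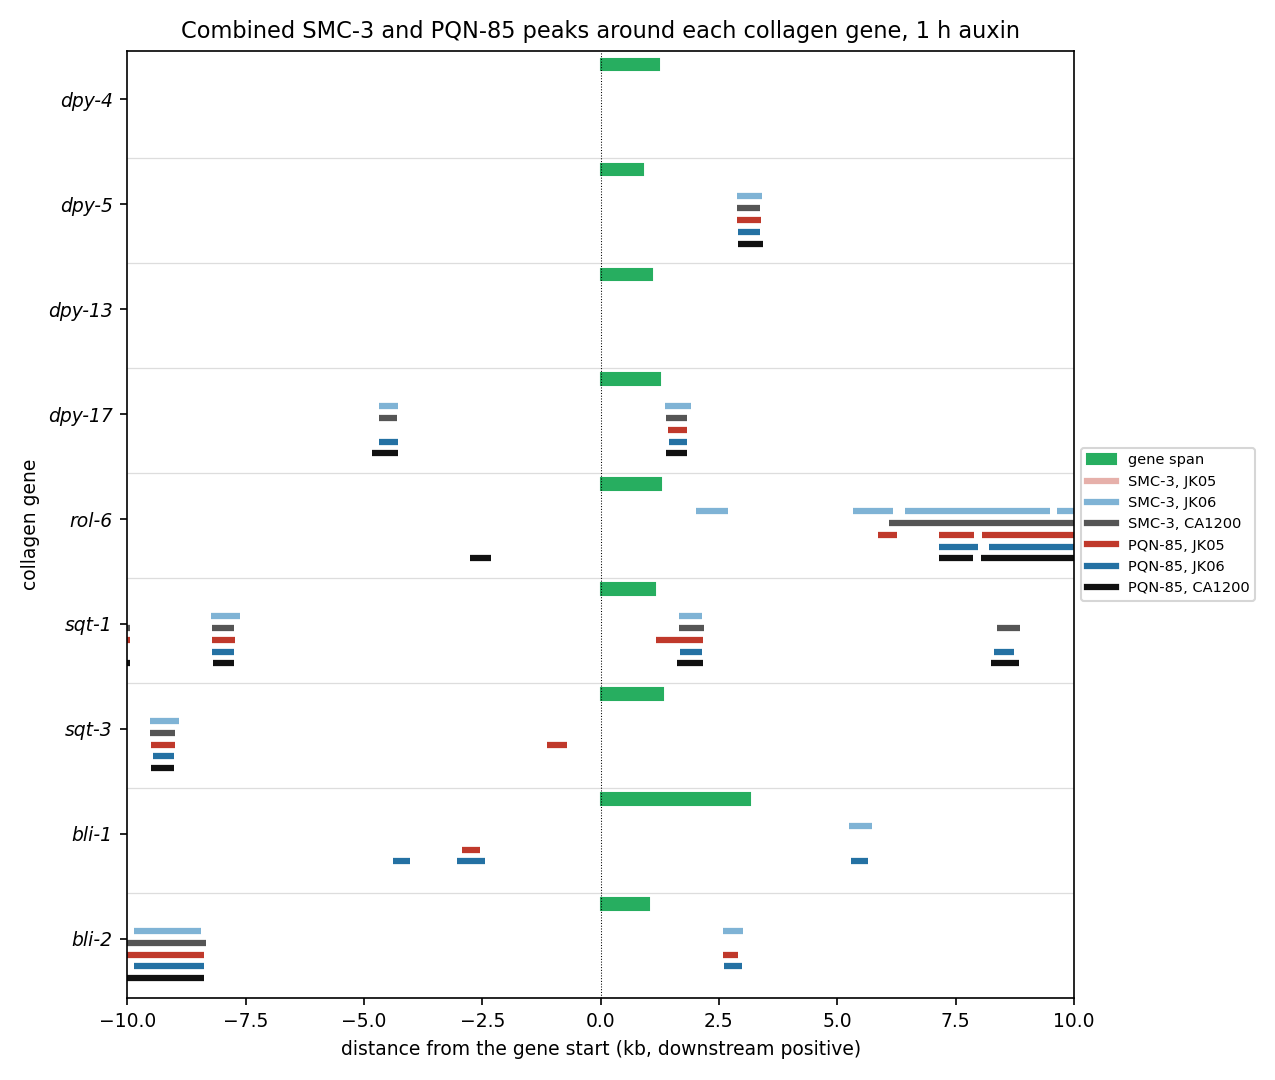
Peaks of the 6 combined sets within 10 kb of each collagen gene start, drawn along the gene's own direction of transcription (horizontal axis in kb), with the gene span in green and 1 line per set. Peaks past the 3′ ends of dpy-17 and sqt-1 recur in the sets other than SMC-3 in JK05, and the JK05 PQN-85 peak past sqt-1 lies 19 bp from the gene span, a gap the coordinates do not resolve.

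In HW04 the number of the 9 genes with a PQN-85 summit within 5000 bp of the start was 0 and 0 with auxin, against 2 and 6 without auxin. Over all genes the share with a summit within that distance was 30.3% and 9.22% with auxin, against 40.8% and 63.4% without auxin, and this difference in the 9 genes was not tested.

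These lists are presence calls, with 1 combined set per strain, so the differences between JK05, JK06 and CA1200 have no replicate error. Peaks near a list's threshold can be called in one list and missed in another, and list sizes ran from 361 to 12367 peaks. H4K20me1 summits were no closer than 9014 bp to any of the 9 genes.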

How the data were processed

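The analysis started from files the authors deposited, and the 9 genes, the other gene lists and the tests were chosen with earlier results of these data known. The labels hold 83 samples; Hi-C, input, SMC-1, GFP and 8WG16 libraries were not used here. Per the submitters' processing notes the tools were Bowtie2 2.4.2, MACS2 2.1.1 and MACS3 for ChIP-seq, and, for RNA-seq, DESeq2 1.30.0 after HISAT2 2.2.1 and HTSeq 0.13.5, with Cufflinks 2.2.1 also named.

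Per the file headers, the RNA tables hold the authors' mean normalized count (a signal over the libraries of both strains, not raw counts), log2 fold change of depletion over CA1200, its standard error, the Wald statistic as a score, and the p-value and adjusted p-value of their fit. The deposited peak lists hold, for each peak, a score, the fold enrichment over input as a ratio, and the −log10 p and −log10 q of the authors' caller. The 21 lists comprise 6 combined sets, 1 list on averaged libraries and 14 of single libraries. The averaged and combined PQN-85 lists of JK06 come from the same 2 libraries. The combined JK06 SMC-3 and PQN-85 sets were attached to samples of other groups and were assigned by the library codes in their peak names.

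No model was refitted, since the tables hold no library values. Genes were called at the authors' adjusted p under 0.05. A gene had a peak where one overlapped 500 bp upstream of its start to its end by at least 1 bp; the window count was tested on simulated data. Fold intervals are 1.96 standard errors either side. Strain means were derived as 2 times the mean over libraries, split by the fold; the CA1200 means so derived from the 2 tables differed by a near-constant log2 ratio of -0.19 (5th to 95th percentile -0.193 to -0.186, 3198 genes). Build ce10 is in the labels of the combined SMC-3 sets and not stated for the other lists used near these genes. Taken chromosome by chromosome, the median offset of the lists' summits from those of SMC-3 in CA1200 was at most 6 bp (16 lists). Table gene starts differed from WBcel235 by medians of 6 to 62 bp per chromosome (276 genes of equal span), so table and peak coordinates were set together directly and gaps of that size are uncertain. All 9 genes were matched by sequence name. All members were named; genes of other lists were named where called or, with none called, taken from the 2 with the smallest p. HW04 counts used an exact permutation test. The labels and design text describe 2 or more biological replicates. Python 3.11.15, pandas 2.3.3, numpy 2.4.6 and matplotlib 3.10.9 were used.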

Additional observations from a re-analysis of the deposited data

How the results depend on the processing

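Of 88 alternative values, 2 moved. Most of the others are counts of 0 or differences of 0, so they say little about stability. With a window reaching 1000 bp or 2000 bp upstream, the number of these genes with a peak in the PQN-85 set of JK05 was 1 (sqt-3), against 0 with 500 bp, because the window then takes in the peak 916 bp upstream of sqt-3. The share of all genes with a peak in that set is 20.7% at 1000 bp and 24.5% at 2000 bp. In the other lists the wider windows also gave 0. The gene span alone, peak summits in place of overlap and a score of at least 100 are stricter than the window used, so a count of 0 could not change under them. The count was 0 in the single and averaged JK06 lists. The number of collagen genes called in RNA was 0 at an adjusted p threshold of 0.1 and with adjustment over all genes or genes with a mean of at least 10, in both comparisons; a threshold of 0.01 is stricter and could only give 0. Centring on the median of genes with a mean of at least 10 (shifts of -0.01 in JK05 and 0.03 in JK06) turned no direction, and the median over genes with a mean of at least 10, an alternative chosen after seeing the data, was -0.08 in JK05 and -0.44 in JK06.

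In HW04 the auxin minus no auxin difference was 0 for each antibody in the fit with the replicate block, 0 to 0 with either replicate left out, and 0 with the conditions stated in the SMC-3 peak names. Whether the replicate numbers pair the samples cannot be judged from counts that are all 0. For the RNA tables, leaving out libraries or blocking was not run, since no library values were used. Depth is unknown. The low genes dpy-17, bli-1 and bli-2 have standard errors of 0.83 to 2.28 on the log2 scale, so a change of moderate size was not detectable for them.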
